A study of Mus musculus with 12 samples.

Results

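The late-rise genes are 89 genes whose transcripts were at least 3 times as abundant in Ddx20 conditional knockout (cKO) as in control mouse spinal cords 4.5 weeks after tamoxifen, with no such difference 0.5 weeks earlier. They were chosen from the 56953 genes counted in both tables by their measured levels, in CPM, a gene's estimated count over the library's total count times 1000000. A member had a mean of 5 CPM or more in cKO cords at 4.5 weeks, all 3 cKO cords above all 3 controls with a ratio of means of 3 or more at that time, and a 4-week ratio in a window that ran from 0.8 to its inverse. Genes of the X and Y chromosomes were left out, which removed 3 X-linked genes from the 92 that met the other conditions. That condition could not be applied to ENSMUSG00000121485 and ENSMUSG00000121137, which have no chromosome in the annotation used and were kept.

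The 12 libraries were made from whole spinal cords of mice and fall into 4 groups of 3 biological replicates. The cKO mice carried loxP-flanked Ddx20 alleles together with the Plp-CreER transgene, and were taken 4 or 4.5 weeks after tamoxifen. The control mice were taken at the same times, and the labels call them only controls, without saying which alleles they carried or whether they too received tamoxifen. CreER, a recombinase that tamoxifen activates, is driven here by the Plp promoter, which is active in oligodendrocytes and, outside the cord's parenchyma, in Schwann cells, so that the gene was to be deleted in few of the cord's cell types.

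Ddx20 encodes a DEAD-box helicase of the complex that assembles the small nuclear ribonucleoproteins of the spliceosome. Oligodendrocytes wrap central axons in myelin and derive from progenitors that persist in the adult cord. When myelin breaks down, microglia and macrophages take up its lipid and protein through scavenger receptors and degrade them in lysosomes, while cholesterol is esterified or exported.

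Total counts ran between 33104560 and 47677267 per library. Whole-gene Ddx20 levels did not separate the groups by a fall: they were 12.4, 11.3 and 13.6 CPM in cKO cords against 8.95, 10.2 and 9.1 CPM in controls at 4.5 weeks, and 10.6, 11.7 and 10.4 CPM in cKO cords against 10.9, 9.61 and 10.8 CPM in controls at 4 weeks. These counts cover every exon and every cell type of the cord, so they do not check the labels, and cKO and control mean here the libraries labelled so. Marker genes of other cell types moved with the groups. At 4.5 weeks the summed level of 4 microglia markers (P2ry12, Tmem119, Cx3cr1 and Csf1r) ran between 1384 and 1583 CPM in cKO cords and between 187.0 and 190.1 CPM in controls, and that of 3 mature oligodendrocyte markers (Mbp, Mog and Mag) between 6884 and 7391 CPM in cKO cords and between 16290 and 16870 CPM in controls. The sum of 4 neuron markers (Snap25, Rbfox3, Nefl and Syt1) lay between 1461 and 1607 CPM in cKO cords and between 5481 and 5708 CPM in controls, and that of the progenitor markers Pdgfra and Cspg4 between 233 and 299 CPM in cKO cords and between 70.2 and 79.3 CPM in controls. At 4 weeks too the microglia sum was higher, between 357.9 and 503.1 CPM in cKO cords and between 190.7 and 197.1 CPM in controls. Tmem119, Cx3cr1 and Csf1r each separated the groups then, while P2ry12 overlapped, at 23.2, 26.2 and 23.4 CPM in cKO cords against 24.5, 24.6 and 21.8 CPM in controls. The 4-week progenitor sum lay between 103 and 130 CPM in cKO cords and between 69.1 and 77.5 CPM in controls, and the neuron sums overlapped. The mature oligodendrocyte sum was lower at that time, between 10620 and 13970 CPM in cKO cords and between 19330 and 21560 CPM in controls. The T, natural killer and B cell markers stayed at or below a sum of 2.21 CPM in all 12 libraries. Cd3e was at 0 in most of them and nowhere above 0.175 CPM. In whole cord, a change in the number of cells of a type and a change in RNA per cell cannot be told apart, and the part of these cell types in the values below was not tested.

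Some libraries stood apart within their group. Control library 1 of 4.5 weeks held more transcripts of tissue around the cord than controls 2 and 3: its 5 fibroblast and meningeal markers (Col1a1, Col1a2, Dcn, Lum and Ptgds) summed to 1636 CPM against 459 and 419 CPM, its 5 Schwann cell markers to 469 CPM against 129 and 116 CPM, and its 6 sensory ganglion markers to 307 CPM against 139 and 133 CPM. Control library 2 of 4.5 weeks held skeletal muscle transcripts at 122.6 CPM. In the 4.5-week cKO cords the fibroblast and meningeal markers summed to 356, 375 and 282 CPM, of which Ptgds held 148, 153 and 128 CPM. Col1a2 stood there at 108, 106 and 83.3 CPM, against 65.9, 83 and 101 CPM in the 4-week controls. The part of attached tissue in the late-rise values was not tested. At 4 weeks, cKO library 3 had only 209 CPM of the fibroblast and meningeal markers, against 1779 and 1457 CPM in cKO libraries 1 and 2 and 863 to 1654 CPM in the controls. The 4-week libraries also differ in sex as read from Xist, the RNA that coats the inactive X chromosome of female cells: 13563 and 14773 counts in cKO libraries 1 and 2, 3 counts in cKO library 3, and 2, 0 and 2 counts in the controls. All 6 libraries of 4.5 weeks had 16090 Xist counts or more.

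The late-rise genes together held more than 3 times the control share of the transcriptome in cKO cords at 4.5 weeks, and about the control share at 4 weeks. They took between 1.05 and 1.11% of all counts in the 4.5-week cKO cords and between 0.249 and 0.284% in the 4.5-week controls. At 4 weeks they took between 0.302 and 0.342% in cKO cords and between 0.283 and 0.294% in controls. The ratio of means at 4.5 weeks, cKO over control, had a median of 3.65 and ran from 3.01 to 35.5; 51 genes lay under 4, 20 were at 5 or more and 7 at 10 or more. In 86 of the 89 genes the lowest cKO cord was at least 2 times the highest control at 4.5 weeks, the exceptions being F13a1, Pear1 and Mxra8. Between the times, the cKO means rose by a median factor of 3.26, and by only 1.53 in Nnat. The control means, 4.5 over 4 weeks, had a median ratio of 0.923, against 0.976 over all genes with at least 1 CPM in a group. Part of the difference at 4.5 weeks thus lay in lower controls for some genes. Because these values chose the genes, they are a description and carry no test.

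**Figure D1:**
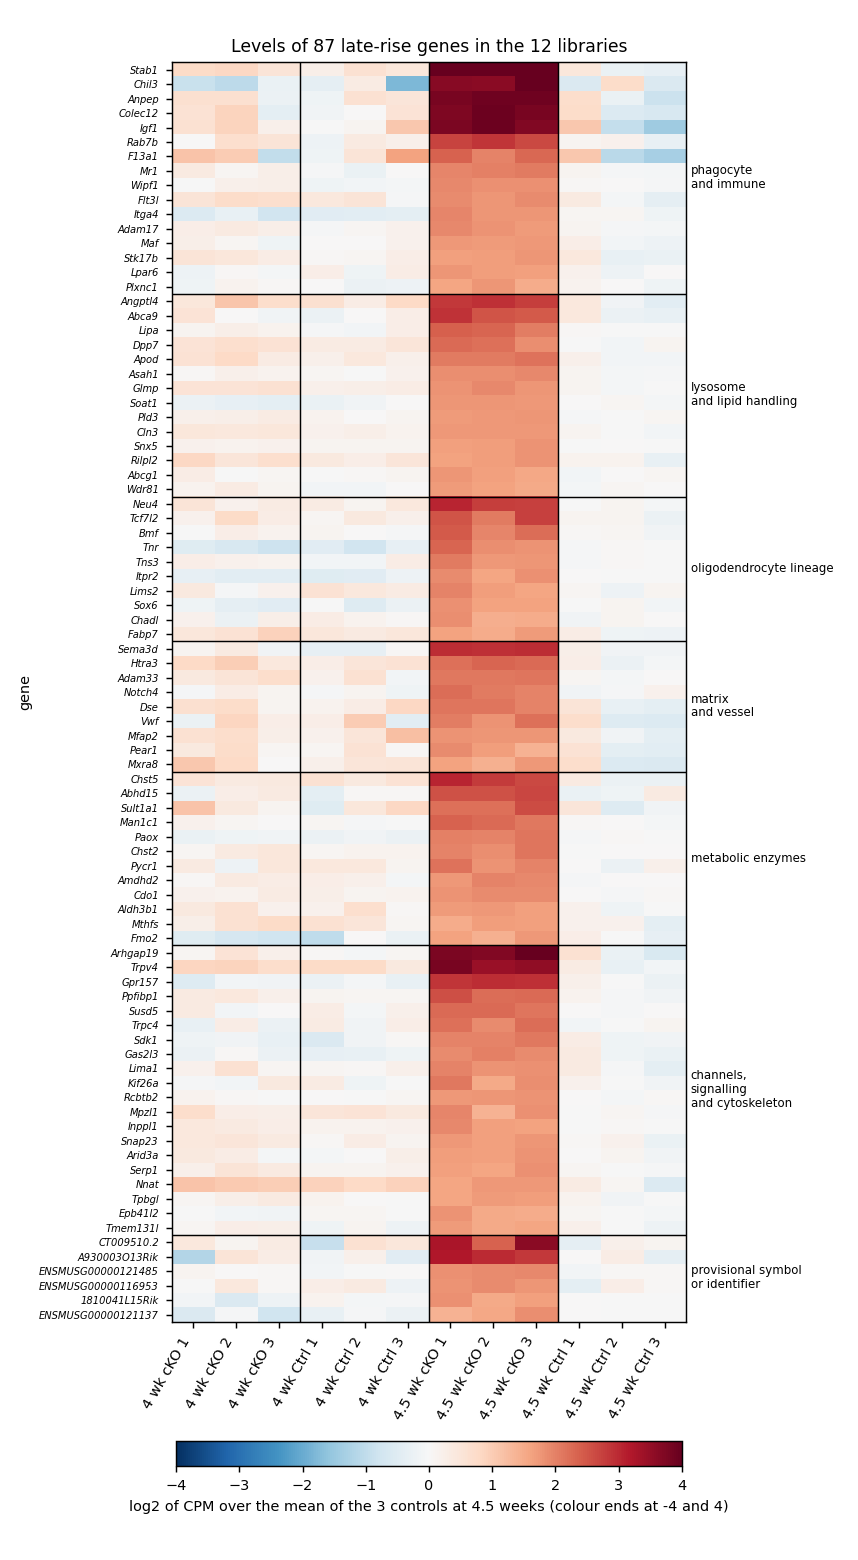
Level of each named late-rise gene (rows, ordered by role and by ratio at 4.5 weeks) in each of the 12 libraries (columns), as log2 of its CPM over the mean of the 3 controls at 4.5 weeks. The 3 cKO columns of 4.5 weeks are red throughout, and most cells of the 4-week cKO and control columns are closer to white. Among the 4-week cells, some of Chil3 and F13a1 lie below the 4.5-week control mean (blue). Others of F13a1, and all of Nnat, lie above it (red).

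Genes that met the 4.5-week conditions without the 4-week window numbered 1215, X and Y left out. Of these, 1115 already had a ratio above that window at 4 weeks, 3 of them with no reads in the 4-week controls, and 11 had one below it; the 89 late-rise genes are 7.33% of the 1215. At 4 weeks the ratio of the 89 genes had a median of 1.1. All 3 cKO cords lay above all 3 controls in 19 of them and below in 1, where 33.2% and 18.0% of all 16364 genes with at least 1 CPM in a group lay above and below; this contrast was part of the choice of the genes, so nothing is read from the comparison.

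**Figure D2:**
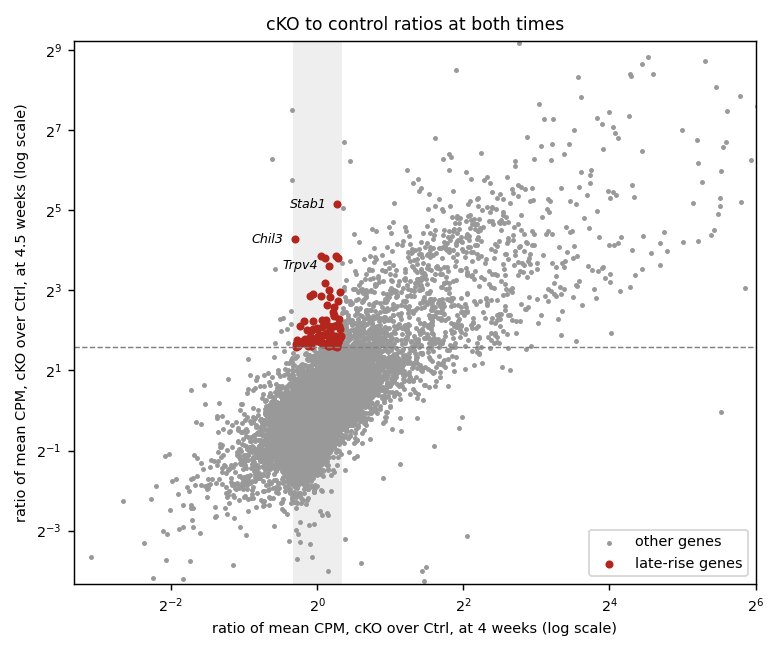
Ratio of mean CPM, cKO over control, at 4 weeks (horizontal) against 4.5 weeks (vertical), both on log scales, for the 13069 genes with a mean of at least 5 CPM in a 4.5-week group and reads in every group mean (28 lie outside the axes). The grey band marks the 4-week window and the dashed line a 4.5-week ratio of 3; the late-rise genes (red) fill that corner, and Stab1 at 35.5 and Chil3 at 19.3 stand highest.

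By what they are known to do, 17 of the 89 genes act in phagocytes and other immune cells, 15 in lysosomes and lipid handling, 10 in the oligodendrocyte lineage, 9 in extracellular matrix and vessels, 12 as metabolic enzymes and 20 in channels, signalling and the cytoskeleton; 6 have only a provisional symbol or an identifier. This sorting was made after the values were seen and serves only to order the description. Each gene was put in a single role. Epb41l2 and Mpzl1, sorted under signalling and the cytoskeleton, also stand in the list of committed and newly formed oligodendrocyte genes given below. By annotation 85 of the 89 are protein coding, and 87 lie on an autosome, the other 2 having no place in the annotation used.

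Among the phagocyte and immune genes, scavenger receptors and secreted macrophage products led. Stab1, stabilin-1, a scavenger receptor of macrophages and sinusoidal endothelium, read 402, 377 and 317 CPM in cKO cords against 14.1, 8.65 and 8.2 CPM in controls at 4.5 weeks. At 4 weeks Stab1 had 17.4, 18.5 and 14.8 CPM in cKO cords against 12.1, 15.7 and 14.1 CPM in controls. Its lowest cKO cord at 4.5 weeks was 22.6 times its highest control, and the 4-week groups overlapped. The ratio of means was 35.5 at 4.5 weeks and 1.21 at 4 weeks. Without control library 1 the 4.5-week ratio was 43.4. Its gene overlaps Nt5dc2 on the other strand, which averaged 14 CPM in cKO cords and 3.51 CPM in controls at 4.5 weeks, a level far below that of Stab1. Colec12, a collectin with a collagen-like stalk that binds sugars and oxidised lipoprotein, had 155, 176 and 162 CPM in cKO cords against 19.5, 7.98 and 7.55 CPM in controls at 4.5 weeks. At 4 weeks Colec12 had 17.5, 21.9 and 8.93 CPM in cKO cords against 10.7, 11.9 and 17.1 CPM in controls. The 4.5-week cKO cords were even among themselves, while control library 1 stood above the other controls, as it did for the meningeal markers. Without it the 4.5-week ratio of Colec12 was 21.2, against 14.1 with it.

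Anpep, aminopeptidase N, a surface peptidase of myeloid cells and pericytes, measured 34.8, 37.5 and 37.5 CPM in cKO cords against 4.07, 2.1 and 1.38 CPM in controls at 4.5 weeks. At 4 weeks Anpep had 3.91, 3.91 and 2.14 CPM in cKO cords against 2.25, 3.84 and 3.56 CPM in controls. All 3 cKO cords of 4.5 weeks were alike and far above the controls, and the 4-week groups overlapped. Chil3, the chitinase-like protein Ym1 of alternatively activated mouse macrophages, had 5.51, 5.35 and 14.5 CPM in cKO cords against 0.294, 0.725 and 0.294 CPM in controls at 4.5 weeks. At 4 weeks Chil3 had 0.237, 0.213 and 0.366 CPM in cKO cords against 0.342, 0.544 and 0.125 CPM in controls. The third cKO cord of 4.5 weeks held most of it, and both groups were under 1 CPM at 4 weeks. Chil3 has a near-identical neighbour, Chil4, with which reads may be shared, so its values are uncertain. Igf1, insulin-like growth factor 1, a trophic factor that microglia and meningeal cells secrete, measured 211, 234 and 199 CPM in cKO cords against 32.5, 7.88 and 5.68 CPM in controls at 4.5 weeks. At 4 weeks Igf1 had 23.6, 28.2 and 17.5 CPM in cKO cords against 15.3, 16.7 and 32.2 CPM in controls. The cKO cords of 4.5 weeks lay close together, and among the controls of either time 1 library stood well above the other two: control 1 at 4.5 weeks and control 3 at 4 weeks. Leaving out control library 1 moved the 4.5-week ratio of Igf1 to 31.6, against 14 with all 3.

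F13a1, the A chain of the transglutaminase factor XIII, found in border macrophages and monocytes, read 17.1, 13.3 and 16.6 CPM in cKO cords against 7.09, 1.6 and 1.34 CPM in controls at 4.5 weeks. At 4 weeks F13a1 had 7.44, 6.73 and 1.69 CPM in cKO cords against 2.98, 4.74 and 10.3 CPM in controls. Its controls again split, with control 1 high at 4.5 weeks and control 3 high at 4 weeks, and cKO library 3 of 4 weeks was the lowest of its group. Its ratio at 4.5 weeks was 4.68, and 10.6 without control library 1.

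The other 11 phagocyte and immune genes had 4.5-week ratios between 3.06 and 6.65. The highest was Rab7b, a small GTPase of traffic between late endosomes and the Golgi, with 52.8, 58.9 and 50.8 CPM in cKO cords against 8.71, 9.15 and 6.57 CPM in controls at 4.5 weeks. Surface molecules of leukocytes were among them. Itga4, the alpha 4 integrin chain that carries leukocytes across vessels, had 28, 24.7 and 24.6 CPM in cKO cords against 7.68, 7.55 and 6.42 CPM in controls. Mr1, which presents bacterial vitamin metabolites to T cells, had 22.2, 23.5 and 24.5 CPM in cKO cords against 6.23, 5.55 and 5.5 CPM in controls. Plxnc1, a receptor for semaphorin 7A, had 50.9, 58.1 and 47.8 CPM in cKO cords against 18.6, 17.4 and 15.2 CPM in controls. No cKO cord overlapped a control in any of them, which the rule required of every late-rise gene. The rest acted in signalling and transcription. Adam17, the sheddase that releases tumour necrosis factor, had 94.7, 86.7 and 81.2 CPM in cKO cords against 26.7, 24.3 and 23.8 CPM in controls. Flt3l, the growth factor of dendritic cell progenitors, had 5.48, 5.1 and 5.5 CPM in cKO cords against 1.91, 1.4 and 1.15 CPM in controls. Maf, a transcription factor of tissue macrophages and of some neurons, had 111, 110.0 and 112 CPM in cKO cords against 40.7, 30.8 and 29.2 CPM in controls. The others included Wipf1, which steadies the actin regulator WASP, Stk17b, a kinase of lymphocytes, and Lpar6, a receptor for lysophosphatidic acid, with ratios of 3.63, 3.26 and 3.23.

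**Figure D3:**
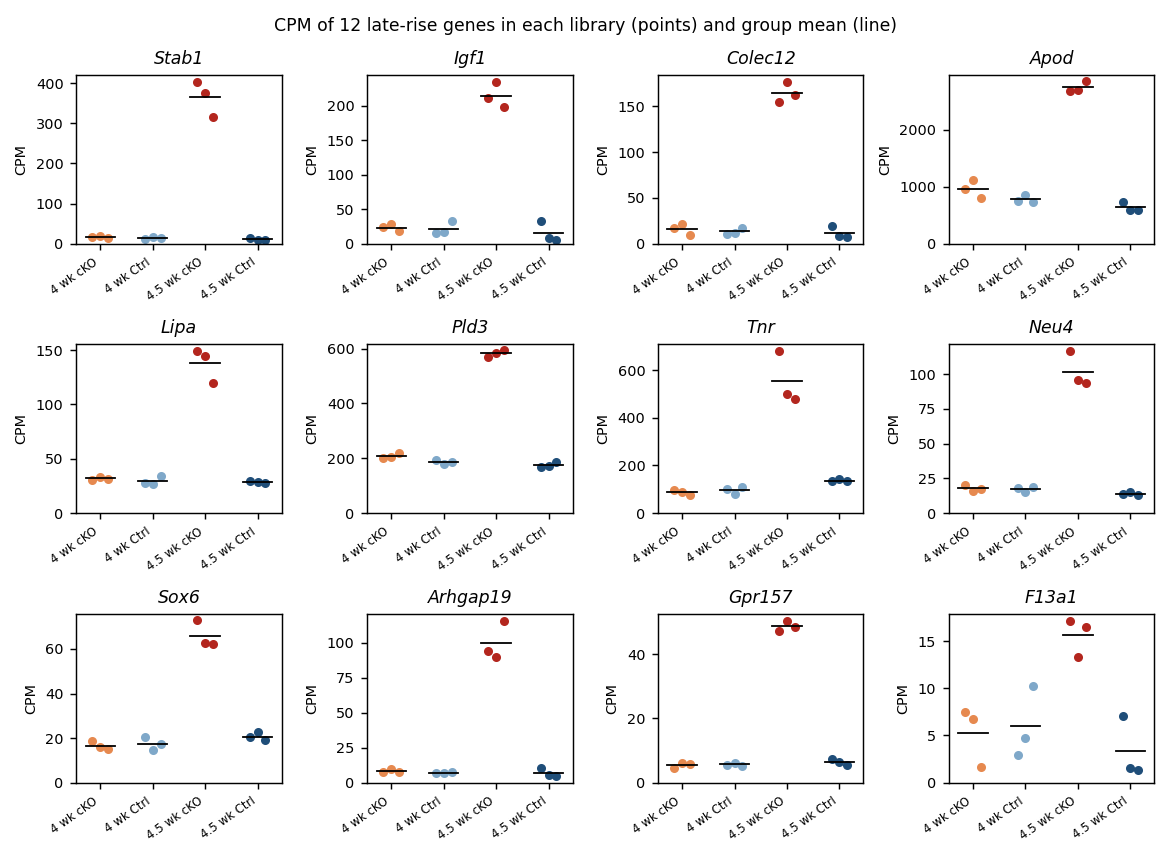
CPM of 12 late-rise genes in each library (points) with the mean of each group (line), groups from left to right 4-week cKO, 4-week control, 4.5-week cKO and 4.5-week control, each axis starting at 0. In all 12 genes the 3 points of the 4.5-week cKO group lie above the rest of the panel; Igf1 and F13a1 show a single high control at each time.

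Lysosomal enzymes and membrane proteins and genes of lipid handling formed the next group, with lower ratios but higher levels. The most abundant late-rise gene was Apod, apolipoprotein D, a small secreted carrier of lipids made by glia and meningeal fibroblasts, with 2676, 2699 and 2858 CPM in cKO cords against 731, 592 and 594 CPM in controls at 4.5 weeks. At 4 weeks Apod had 959, 1119 and 803 CPM in cKO cords against 743, 854 and 737 CPM in controls. The cKO cords of 4.5 weeks lay within a narrow range, and at 4 weeks cKO libraries 1 and 2 lay above all controls while cKO library 3 lay among them. Pld3, a membrane-bound exonuclease of lysosomes that degrades nucleic acid, had 569, 585 and 595 CPM in cKO cords against 168, 172 and 185 CPM in controls at 4.5 weeks. At 4 weeks Pld3 had 200.3, 205 and 220.3 CPM in cKO cords against 194, 178 and 188 CPM in controls. At 4 weeks the groups were already apart, by a ratio of only 1.12. Asah1, acid ceramidase, measured 204, 207 and 215 CPM in cKO cords against 61.3, 53.5 and 55 CPM in controls at 4.5 weeks. At 4 weeks Asah1 had 58, 64.8 and 62.8 CPM in cKO cords against 60.3, 56.1 and 63.9 CPM in controls. Those ranges overlapped.

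Lipa, the lysosomal acid lipase that frees cholesterol from its esters, had 149.5, 144 and 119 CPM in cKO cords against 29.3, 28.5 and 28 CPM in controls at 4.5 weeks. At 4 weeks Lipa had 30.9, 33.5 and 31.7 CPM in cKO cords against 27.5, 26.7 and 34.2 CPM in controls. Asah1 and Lipa, enzymes of the lysosomal lumen, thus stood at over 3 times the control level late and at about the control level early. Dpp7, a lysosomal dipeptidase, read 64.5, 61.5 and 49.3 CPM in cKO cords against 13.4, 12.4 and 14.7 CPM in controls at 4.5 weeks, with a 4-week ratio of 1.18. Glmp, a glycoprotein of the lysosomal membrane, had 138, 152 and 135 CPM in cKO cords against 43, 38 and 39.3 CPM in controls. Cln3, the membrane protein mutated in juvenile Batten disease, had 44.3, 43.7 and 44.5 CPM in cKO cords against 14.3, 13.2 and 12.3 CPM in controls. Cln3 overlaps Apobr, an apolipoprotein B receptor gene on the other strand, which averaged 21.1 CPM in cKO cords and 1.55 CPM in controls at 4.5 weeks, and the library kit does not mark strand, so reads of the overlap cannot be assigned to either.

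Cholesterol genes of both fates were present. Soat1, which esterifies cholesterol for storage, had 149.5, 148 and 145 CPM in cKO cords against 44.2, 46.2 and 41.6 CPM in controls at 4.5 weeks. At 4 weeks Soat1 had 37.5, 35 and 33.9 CPM in cKO cords against 36.5, 39.8 and 44.9 CPM in controls. Abcg1, which exports cholesterol to lipoproteins, had 252, 233 and 218 CPM in cKO cords against 69.7, 75.6 and 78 CPM in controls at 4.5 weeks. At 4 weeks Abcg1 had 92.2, 73 and 79 CPM in cKO cords against 73.6, 77 and 80.9 CPM in controls. Neither gene separated the groups at 4 weeks, and the 4-week ratios were 0.879 and 1.05. Angptl4, a secreted inhibitor of lipoprotein lipase, read 13.5, 14.4 and 12.9 CPM in cKO cords against 2.55, 1.73 and 1.43 CPM in controls at 4.5 weeks. At 4 weeks Angptl4 had 2.61, 4.12 and 3.07 CPM in cKO cords against 2.96, 2.36 and 3.33 CPM in controls. Its cKO cords of 4.5 weeks lay close together, and its 4-week groups overlapped. Abca9, an ABC transporter of the A family, had 63.6, 49.5 and 47.5 CPM in cKO cords against 11.6, 7.33 and 6.94 CPM in controls at 4.5 weeks.

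Sorting and traffic proteins completed the group. Snx5, a sorting nexin that returns receptors from endosomes, had 331, 342 and 374 CPM in cKO cords against 107, 108 and 106 CPM in controls at 4.5 weeks. At 4 weeks Snx5 had 119, 117 and 119.7 CPM in cKO cords against 115, 114 and 116 CPM in controls. This small difference, a ratio of 1.03, came with no overlap. Wdr81, which acts in endosome maturation and clearance of aggregates, had 99.6, 92 and 87.5 CPM in cKO cords against 28.6, 32 and 30.5 CPM in controls at 4.5 weeks. Rilpl2, a Rab effector of endosomes and cilia, had 21.7, 22.7 and 24.5 CPM in cKO cords against 7.78, 7.73 and 5.75 CPM in controls.

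Many lysosomal genes carry the palindrome TCACGTGA near their start, the core of the CLEAR element bound by the transcription factor TFEB; its inner letters CACGTG and ACGTG are also an E-box and the hypoxia element. For 70 of the 89 genes, 88 promoter windows were available, each running from 250 bases before to 50 bases after a transcription start (RefSeq, GRCm38.p6). TCACGTGA stood in windows of 3 of these 70 genes (4.29%), Amdhd2, Cln3 and Dpp7, against 1.12% of all 27025 genes with windows, both strands searched. CACGTG stood in 8 of 70 (11.4%), against 8.09% of all genes, and 4 of the 8 belong to the 11 lysosome and lipid genes with a window: Cln3, Dpp7, Snx5 and Wdr81. These 2 motifs were added after the values were seen, and a match is a description of letters, not a bound site. The 250 bases before the start are printed for these 5 genes to show where the motif lies, 5′ to 3′ on the gene's strand. Capitals mark TCACGTGA in Cln3, Dpp7 and Amdhd2, and CACGTG in Snx5 and Wdr81. Further copies of CACGTG in Cln3 and Amdhd2 are left in lower case. All 5 genes lie on the minus strand of GRCm38.p6: Cln3 at chr7:126583237-126583486, Dpp7 at chr2:25356333-25356582, Amdhd2 at chr17:24163734-24163983, Snx5 at chr2:144270573-144270822 and Wdr81 at chr11:75454718-75454967.
Cln3: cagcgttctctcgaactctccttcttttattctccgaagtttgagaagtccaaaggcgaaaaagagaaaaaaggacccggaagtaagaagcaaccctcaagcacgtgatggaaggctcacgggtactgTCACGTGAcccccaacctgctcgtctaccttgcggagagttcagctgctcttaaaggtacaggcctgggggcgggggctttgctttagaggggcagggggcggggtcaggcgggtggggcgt
Dpp7: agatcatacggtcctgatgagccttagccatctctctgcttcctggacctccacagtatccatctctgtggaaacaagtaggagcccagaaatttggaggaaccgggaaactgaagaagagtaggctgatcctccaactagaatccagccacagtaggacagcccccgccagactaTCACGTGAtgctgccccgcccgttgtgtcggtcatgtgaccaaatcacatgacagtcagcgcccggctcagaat
Amdhd2: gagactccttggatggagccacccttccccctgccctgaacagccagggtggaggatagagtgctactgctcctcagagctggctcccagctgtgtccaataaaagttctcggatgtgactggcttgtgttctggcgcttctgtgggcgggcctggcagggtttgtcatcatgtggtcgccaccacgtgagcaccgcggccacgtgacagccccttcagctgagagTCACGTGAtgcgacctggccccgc
Snx5: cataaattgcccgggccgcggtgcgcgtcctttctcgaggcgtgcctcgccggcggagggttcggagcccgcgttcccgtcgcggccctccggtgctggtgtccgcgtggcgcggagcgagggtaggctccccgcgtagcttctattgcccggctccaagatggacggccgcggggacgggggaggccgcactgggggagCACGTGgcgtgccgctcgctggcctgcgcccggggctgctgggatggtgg
Wdr81: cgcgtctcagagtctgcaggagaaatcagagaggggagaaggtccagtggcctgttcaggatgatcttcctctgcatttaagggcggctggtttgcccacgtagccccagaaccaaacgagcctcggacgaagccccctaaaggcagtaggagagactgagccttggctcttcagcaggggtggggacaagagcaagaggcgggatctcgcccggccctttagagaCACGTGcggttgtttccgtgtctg
Between the last base in capitals and the start lie 114 bases in Cln3, 66 in Dpp7, 16 in Amdhd2, 44 in Snx5 and 18 in Wdr81.

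Other motifs were no more frequent in the windows of late-rise genes than in those of all genes, or differed by few genes. The hypoxia element ACGTG stood in 24.3% of the 70 genes against 21.8% of all genes, and the C/EBP motif TTGCNNAA in 11.4% against 12.2%. Lower shares were found for the single arm AGAACA of the glucocorticoid receptor element (12.9% against 21.3%), the STAT motif TTCNNNGAA (7.14% against 9.55%), the AP-1 motif TGANTCA (4.29% against 8.97%), the ATF4 element TGATGNAA (2.86% against 4.51%) and the TATA box TATAAA (7.14% against 15.7%). The NF-kB motif GGGANNTTCC and the full glucocorticoid receptor element, which has degenerate letters and is given by name, had no match in the 70 genes, against 1.63% and 0.0111% of all genes.

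The oligodendrocyte lineage genes are known from the stages between progenitor and newly formed oligodendrocyte. Tnr, tenascin-R, a matrix glycoprotein that these cells lay down around axons, had 679, 500.0 and 478 CPM in cKO cords against 133, 142 and 135 CPM in controls at 4.5 weeks. At 4 weeks Tnr had 97.7, 87.2 and 77.3 CPM in cKO cords against 100.4, 79.6 and 109 CPM in controls. cKO library 1 of 4.5 weeks was the highest, and at 4 weeks cKO and control cords shared one range. Tns3, tensin 3, an adhesion protein of differentiating oligodendrocytes, read 538, 424 and 436 CPM in cKO cords against 123, 133 and 127 CPM in controls at 4.5 weeks. At 4 weeks Tns3 had 154, 143 and 141 CPM in cKO cords against 119, 117 and 156 CPM in controls. Again cKO library 1 was the highest at 4.5 weeks. Neu4, a sialidase of the oligodendrocyte lineage, had 116, 95.5 and 93.5 CPM in cKO cords against 13.8, 15.1 and 13.3 CPM in controls at 4.5 weeks. At 4 weeks Neu4 had 20.1, 15.9 and 17.6 CPM in cKO cords against 17.7, 15.2 and 18.8 CPM in controls. Its 4.5-week ratio of 7.23 was the largest of the 10 genes. Sox6, a transcription factor that holds progenitors from differentiating, had 73, 62.7 and 62.4 CPM in cKO cords against 20.4, 22.5 and 19.1 CPM in controls at 4.5 weeks. At 4 weeks Sox6 had 18.5, 16 and 15.2 CPM in cKO cords against 20.5, 14.6 and 17.5 CPM in controls.

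Itpr2, a calcium release channel and a mark of newly formed oligodendrocytes, had 141, 114 and 135 CPM in cKO cords against 38.4, 38.1 and 38.1 CPM in controls at 4.5 weeks. Tcf7l2, a transcription factor of premyelinating oligodendrocytes, had 20.4, 15.2 and 23.9 CPM in cKO cords against 3.9, 3.88 and 3.04 CPM in controls. In both the 4-week ratio was close to 1, at 0.986 and 1.16. Bmf, a BH3-only protein that promotes cell death, had 36.2, 25.9 and 31 CPM in cKO cords against 6.84, 7.03 and 5.96 CPM in controls at 4.5 weeks. Chadl, a leucine-rich matrix protein, had 52.8, 39.8 and 40.1 CPM in cKO cords against 13.2, 15.6 and 14.5 CPM in controls. Fabp7, the brain fatty acid binding protein of progenitors and astrocytes, had 98.6, 91.3 and 106 CPM in cKO cords against 39.8, 28.9 and 28.3 CPM in controls. In each of these genes the lowest cKO cord stood well above the highest control. The summed level of the 10 genes was 1813, 1413 and 1449 CPM in the 4.5-week cKO cords and 407, 418 and 399 CPM in the 4.5-week controls. Lims2, an adaptor of integrin adhesions, had 57.1, 45.5 and 42.7 CPM in cKO cords against 15.2, 12.5 and 15.3 CPM in controls. It overlaps Gpr17, a receptor of committed progenitors on the other strand, which averaged 681 CPM in cKO cords and 59.2 CPM in controls at 4.5 weeks, and reads of the overlap cannot be assigned to either.

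Of the 9 matrix and vessel genes, Sema3d, a secreted guidance cue, was the highest in ratio, with 115, 111 and 115 CPM in cKO cords against 17.5, 13.4 and 13.4 CPM in controls at 4.5 weeks. At 4 weeks Sema3d had 15.9, 18.9 and 13.4 CPM in cKO cords against 11.7, 11.8 and 15.3 CPM in controls. Vwf, von Willebrand factor of endothelium, had 77.6, 65 and 86.6 CPM in cKO cords against 30.3, 13 and 12.8 CPM in controls at 4.5 weeks. At 4 weeks Vwf had 15.8, 33.6 and 22.5 CPM in cKO cords against 22.5, 38.1 and 14.1 CPM in controls. Both groups spread widely at 4 weeks. Notch4, a Notch receptor of endothelium, had 41.6, 37.5 and 35 CPM in cKO cords against 7.9, 8.55 and 9.92 CPM in controls at 4.5 weeks with little spread. Htra3, a secreted serine protease, had 35.9, 39.5 and 37.8 CPM in cKO cords against 9.3, 6.7 and 7.42 CPM in controls. Dse, which makes dermatan sulfate, Adam33, a membrane metalloprotease, and Pear1, a platelet and endothelial receptor, had ratios of 4.25, 4.35 and 3.17. For Vwf, Dse, Pear1, Mfap2 and Mxra8, control library 1 of 4.5 weeks stood at 1.5 times the mean of controls 2 and 3 or more. It did so for 16 of the 89 genes, whose median for this ratio was 1.11. Over all genes with at least 1 CPM in a group the median was 1.01 and the 95th percentile 1.64, so nothing is read from the 16. The meningeal markers were higher in that library too, and their part was not tested.

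The 12 metabolic enzymes were mostly flat across the 4-week cords and the 4.5-week controls. Chst2, a sulfotransferase of the sugar chains of matrix and adhesion molecules, had 346, 318 and 381 CPM in cKO cords against 85, 87.7 and 87.7 CPM in controls at 4.5 weeks. At 4 weeks Chst2 had 91.5, 111 and 118 CPM in cKO cords against 91.9, 94.8 and 95.3 CPM in controls. Its relative Chst5 had 10.5, 8.78 and 7.85 CPM in cKO cords against 1.62, 1.08 and 1.07 CPM in controls at 4.5 weeks, a ratio of 7.2. Sult1a1, a phenol sulfotransferase, had 24.7, 24.9 and 32.9 CPM in cKO cords against 7.43, 3.75 and 4.91 CPM in controls at 4.5 weeks. At 4 weeks Sult1a1 had 11.7, 7.05 and 5.74 CPM in cKO cords against 3.83, 7.4 and 9.59 CPM in controls. Cords of both groups spread widely at that time. Man1c1, which trims mannose in the Golgi, had 183, 173 and 153 CPM in cKO cords against 36.7, 36.3 and 34 CPM in controls. Paox, a polyamine oxidase, had 53, 51.2 and 57.7 CPM in cKO cords against 12.6, 13.4 and 13 CPM in controls, and both genes had a 4-week ratio between 1 and 1.05. Enzymes of sugar, sulfur and amino acid metabolism followed. Amdhd2, an enzyme of amino sugar breakdown, had 29.5, 35.4 and 33.4 CPM in cKO cords against 8.63, 9 and 9.04 CPM in controls. Cdo1, which oxidises cysteine, had 50.7, 54.5 and 54.5 CPM in cKO cords against 14.7, 14.2 and 14.9 CPM in controls. The lipase-fold protein Abhd15 and Pycr1, which makes proline, stayed under 10 CPM, with ratios of 6.01 and 3.97. Aldh3b1, an aldehyde dehydrogenase, and Mthfs, a folate enzyme, had ratios of 3.24 and 3.04.

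Among the 20 genes of channels, signalling and the cytoskeleton, 3 had ratios far above the rest. Arhgap19, a GTPase activating protein for RhoA, had 94.3, 90.2 and 115 CPM in cKO cords against 10.4, 5.78 and 4.51 CPM in controls at 4.5 weeks. At 4 weeks Arhgap19 had 7.35, 9.98 and 7.88 CPM in cKO cords against 7.13, 6.55 and 7.31 CPM in controls. Trpv4, a calcium channel opened by warmth and swelling, read 15.3, 12.2 and 12.9 CPM in cKO cords against 1.37, 0.9 and 1.03 CPM in controls at 4.5 weeks. At 4 weeks Trpv4 had 1.99, 2.05 and 1.77 CPM in cKO cords against 1.88, 1.87 and 1.45 CPM in controls. Gpr157, an orphan receptor of cilia, had 47.1, 50.4 and 48.6 CPM in cKO cords against 7.48, 6.38 and 5.54 CPM in controls at 4.5 weeks. At 4 weeks Gpr157 had 4.51, 5.96 and 5.83 CPM in cKO cords against 5.54, 6.13 and 5.28 CPM in controls. In Trpv4 and Gpr157 the 4-week groups overlapped, and in Arhgap19 every 4-week cKO cord lay above the controls by a small margin.

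Epb41l2, which ties the membrane to spectrin, had 426, 350.5 and 343 CPM in cKO cords against 129, 122 and 118 CPM in controls at 4.5 weeks. At 4 weeks Epb41l2 had 122, 114 and 113 CPM in cKO cords against 130.1, 130.0 and 121 CPM in controls. Serp1, which protects new proteins in the endoplasmic reticulum, had 171, 163 and 195 CPM in cKO cords against 57.5, 53.6 and 53 CPM in controls at 4.5 weeks. At 4 weeks Serp1 had 63.3, 77.7 and 69.9 CPM in cKO cords against 59.6, 58.6 and 61.4 CPM in controls. Both were abundant genes whose 4-week groups lay within a ratio of 0.917 and 1.17. Ppfibp1, liprin beta 1, had 173, 134 and 138 CPM in cKO cords against 31.9, 28 and 26.1 CPM in controls at 4.5 weeks. Inppl1, the phosphoinositide phosphatase SHIP2, had 148, 121 and 119 CPM in cKO cords against 38.3, 40.5 and 38.5 CPM in controls. Nnat, neuronatin, an imprinted gene within Blcap, had 159, 178 and 176 CPM in cKO cords against 67.3, 56 and 36.4 CPM in controls at 4.5 weeks. At 4 weeks Nnat had 119, 109.6 and 106 CPM in cKO cords against 101, 92.2 and 101 CPM in controls. Its ratio at 4.5 weeks was 3.21, and its controls were lower then than at 4 weeks. The calcium channel Trpc4, the adhesion molecule Sdk1, the actin proteins Lima1 and Gas2l3, the kinesin-like Kif26a, the fusion protein Snap23, the transcription factor Arid3a, the surface glycoprotein Mpzl1 and Susd5, Rcbtb2 and Tpbgl had ratios between 3.15 and 4.66. Rcbtb2 and Lpar6 overlap Rb1, which averaged 77.9 CPM in cKO cords and 32.8 CPM in controls at 4.5 weeks.

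The 6 genes with a provisional symbol or identifier had 4.5-week ratios between 3.07 and 9.05 and 4-week ratios between 0.817 and 1.12. The most abundant, 1810041L15Rik, had 91.9, 72.4 and 79.8 CPM in cKO cords against 25.7, 25.6 and 25.6 CPM in controls at 4.5 weeks. At 4 weeks 1810041L15Rik had 23.8, 17 and 22.4 CPM in cKO cords against 28.2, 24.2 and 25 CPM in controls. It was the 1 late-rise gene with every 4-week cKO cord below the controls. Next came ENSMUSG00000121485, with 71.1, 74.6 and 76 CPM in cKO cords against 18.5, 20.9 and 20.9 CPM in controls at 4.5 weeks. At 4 weeks ENSMUSG00000121485 had 21.6, 20.2 and 20.8 CPM in cKO cords against 18.8, 20.1 and 20.2 CPM in controls. All its 4-week values and 4.5-week controls lay close together. After it came CT009510.2, with 21.9, 11.5 and 27.7 CPM in cKO cords against 1.77, 2.58 and 2.41 CPM in controls at 4.5 weeks. At 4 weeks CT009510.2 had 2.99, 2.42 and 2.84 CPM in cKO cords against 1.2, 3.41 and 3.08 CPM in controls. Its 4.5-week cKO cords differed widely, library 2 being the lowest. CT009510.2 overlaps Pcdh17 on the other strand, and A930003O13Rik overlaps Lhfpl3, a progenitor gene that averaged 142 CPM in cKO cords and 57.9 CPM in controls at 4.5 weeks.

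The thresholds divided genes of similar values. Just inside the ratio of 3 stood Mxra8, an adhesion molecule, with 19.5, 17.4 and 21.3 CPM in cKO cords against 10.6, 4.45 and 4.36 CPM in controls at 4.5 weeks. At 4 weeks Mxra8 had 13.6, 11.2 and 6.5 CPM in cKO cords against 7.47, 9.12 and 9.24 CPM in controls. Fmo2, a flavin monooxygenase, had 8.71, 7.58 and 9.34 CPM in cKO cords against 3.41, 2.8 and 2.27 CPM in controls at 4.5 weeks. In Mxra8 and Fmo2 the 4-week groups overlapped. Tmem131l, a membrane protein, had 24, 21.2 and 22.1 CPM in cKO cords against 8.49, 7.28 and 6.48 CPM in controls at 4.5 weeks. At 4 weeks Tmem131l had 7.83, 8.94 and 8.7 CPM in cKO cords against 6.59, 8.01 and 6.41 CPM in controls. These 3 genes had 4.5-week ratios of 3.01, 3.02 and 3.02.

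Just outside stood Rnf149, a ubiquitin ligase, with 78.2, 80.9 and 79.8 CPM in cKO cords against 27.4, 24.7 and 28.3 CPM in controls at 4.5 weeks and a ratio of 2.97. Dera, an aldolase of deoxyribose phosphate, had 9.87, 11.1 and 13.5 CPM in cKO cords against 4.34, 3.68 and 3.61 CPM in controls. Myo1e, a myosin motor, had 136, 133 and 109.8 CPM in cKO cords against 49.7, 43 and 35.4 CPM in controls, both at a ratio of 2.96.

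At the low end of the 4-week window Chil3 (ratio 0.807) and 1810041L15Rik (0.817) stood inside. Outside stood Ms4a4a, a tetraspan protein of myeloid cells, with 9.43, 7.55 and 12.4 CPM in cKO cords against 0.0736, 0.025 and 0.0629 CPM in controls at 4.5 weeks. At 4 weeks Ms4a4a had 0.148, 0.239 and 0.113 CPM in cKO cords against 0.122, 0.211 and 0.3 CPM in controls. That is a 4-week ratio of 0.789 on fewer than 1 CPM. Col9a1, a collagen chain, had 7.22, 6.05 and 7.08 CPM in cKO cords against 1.81, 1.6 and 1.18 CPM in controls at 4.5 weeks. At 4 weeks Col9a1 had 1.6, 1.28 and 1.38 CPM in cKO cords against 1.66, 2.57 and 1.23 CPM in controls, a ratio of 0.78. At the high end Flt3l and Sema3d (1.245) stood inside, and Arap3 and Nhlrc3 outside. Arap3, a GTPase activating protein, had 8.83, 13 and 12.8 CPM in cKO cords against 9.23, 10.6 and 7.76 CPM in controls at 4 weeks, a ratio of 1.253. Nhlrc3 had 16.2, 16.7 and 16.4 CPM in cKO cords against 13.7, 13.8 and 11.7 CPM in controls at that time, a ratio of 1.257.

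By level, Mfap2, a microfibril protein, was the lowest inside, with 5.33, 5.24 and 5.24 CPM in cKO cords against 2.01, 1.4 and 1.18 CPM in controls at 4.5 weeks. At 4 weeks Mfap2 had 2.31, 2.48 and 1.8 CPM in cKO cords against 1.71, 2.15 and 3.51 CPM in controls. Its cKO cords were alike at 4.5 weeks, and its 4-week groups overlapped. Below the minimum of 5 CPM stood Arg1, arginase 1, with 1.59, 4.18 and 8.34 CPM in cKO cords against 0.343, 0.2 and 0.021 CPM in controls at 4.5 weeks. Angpt2, a ligand of the endothelial receptor Tie2, had 4.17, 5.52 and 4.41 CPM in cKO cords against 2.67, 0.85 and 0.713 CPM in controls and missed it as well.

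The level at 4 weeks depended on the library for part of the genes. Set against the 4-week controls, cKO library 3, whose Xist count matched theirs, put 68 of the 89 genes inside the window, 11 above and 10 below. Farthest below were F13a1 at 0.282, ENSMUSG00000121137 at 0.651, Anpep at 0.666 and Colec12 at 0.675, where the mean of cKO libraries 1 and 2 gave 1.18, 0.924, 1.22 and 1.49. Farthest above were Fabp7 at 1.41, Adam33 at 1.35 and Abhd15 at 1.35. The meningeal markers of cKO library 3 were low, as given above, and their part in these ratios was not tested. At 4.5 weeks all 6 libraries held Xist reads, between 21785 and 30525 counts in cKO cords and between 16090 and 17329 in controls. Leaving out control library 1 of that time kept 87 of the 89 genes at a ratio of 3 or more, Chadl and Wdr81 falling to 2.94 and 2.97.

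**Figure D4:**
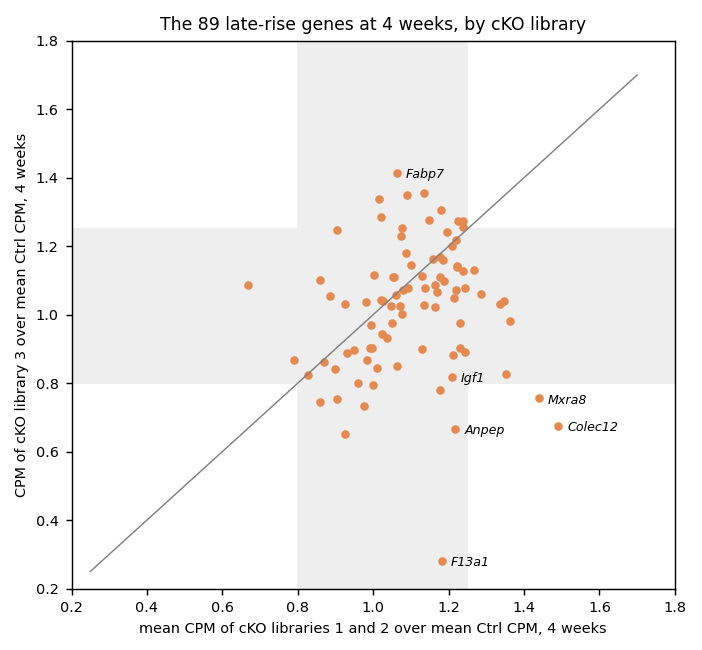
Each point is a late-rise gene at 4 weeks: the mean of cKO libraries 1 and 2 over the control mean (horizontal) against cKO library 3 over the control mean (vertical), with grey bands for the window and a line of equality. Most of the 89 points lie in the crossing of the bands, and F13a1 (1.18 and 0.282) and Colec12 (1.49 and 0.675) lie farthest below the line.

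Genes with a similar pattern over the 12 libraries were sought for the 3 most abundant late-rise genes, as Pearson's r of log2(CPM + 1) over 16197 genes; every r rests on the same 12 libraries, and no test is attached. Closest to Apod were Ltc4s (r = 0.995), Htra3 (0.993), Tor4a (0.992), Sumf1 (0.992) and Ecm1 (0.991). Closest to Pld3 were Cdo1 (0.998), Snx22 (0.996), Snx5 (0.995), Gm13391 (0.995) and Daglb (0.995). Closest to Tnr were Top2b (0.992), Sox6 (0.991), Itpr2 (0.991), Lrp1 (0.990) and Cbl (0.990). Htra3, Cdo1, Snx5, Sox6 and Itpr2 are late-rise genes themselves.

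The lists to which late-rise genes belong were then described without them. The list of homeostatic microglia genes, which holds no late-rise gene, was described beside them. The values come from a fit of all 19278 genes that passed a filter on low counts, all 89 late-rise genes among them. A gene was called when edgeR's quasi-likelihood test gave a Benjamini-Hochberg adjusted p below 0.05, with log2 fold changes as cKO minus control. Of all genes tested, 33.3% were called higher and 32.6% lower at 4.5 weeks, 20.1% higher and 17.2% lower at 4 weeks, and in the difference of the effects, 4.5 minus 4 weeks, 18.7% were called higher and 21.9% lower. The median log2 fold change of all genes was 0.021 at 4.5 weeks, 0.0072 at 4 weeks and -0.025 for the difference.

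Genes of disease-associated microglia other than Igf1 were mostly called higher at both times. Of 21, 20 were called higher and 1 lower (Ank, a pyrophosphate exporter, log2 fold change -0.50) at 4.5 weeks, with a median of 4.76. At 4 weeks 19 were called higher, Ank lower at -0.41, and Fabp5 not called at -0.093, with a median of 1.72. For the difference 20 were called higher and Ank was not called. Gpnmb, a glycoprotein of lipid-filled macrophages, averaged 2440 ± 90.5 CPM in cKO cords and 3.53 ± 0.176 CPM in controls (SD, n = 3 each) at 4.5 weeks. At 4 weeks Gpnmb averaged 16.9 ± 2.73 CPM in cKO cords and 2.87 ± 0.772 CPM in controls (SD, n = 3 each). Its log2 fold change was 9.35 (SE 0.18) at 4.5 weeks and 2.47 (SE 0.16) at 4 weeks, with adjusted p of 1.2e-11 and 2.3e-07 by edgeR's quasi-likelihood test. Trem2, the lipid receptor of microglia, had log2 fold changes of 5.39 and 2.31, and Ctsd, cathepsin D, of 4.68 and 2.02, at 4.5 and 4 weeks, each called at both times. Igf1, chosen for a 4-week ratio near 1, had one of 1.08 at 4 weeks.

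Lipid-laden phagocyte genes other than Soat1 and Abcg1 were all called higher at 4.5 weeks, 17 of 17, with a median log2 fold change of 5.20. At 4 weeks 13 were called higher, Mgll, a monoglyceride lipase, lower at -0.63, and Fabp5, Fabp4 and Arg1 were not called, at -0.093, 0.81 and -0.11; the median was 1.78. Abca1, the cholesterol exporter that works ahead of Abcg1, averaged 679.8 ± 62.8 CPM in cKO cords and 39 ± 4.82 CPM in controls (SD, n = 3 each) at 4.5 weeks. At 4 weeks Abca1 averaged 71.9 ± 4.85 CPM in cKO cords and 32.3 ± 3.83 CPM in controls (SD, n = 3 each). Plin2, the coat of lipid droplets, averaged 260.4 ± 35.4 CPM in cKO cords and 18.3 ± 1.32 CPM in controls (SD, n = 3 each) at 4.5 weeks. At 4 weeks Plin2 averaged 37.6 ± 5.13 CPM in cKO cords and 21.8 ± 1.43 CPM in controls (SD, n = 3 each). The difference between the times was called for both, 2.98 for Abca1 (adjusted p = 7.7e-08) and 3.05 for Plin2 (adjusted p = 7.7e-08, edgeR's quasi-likelihood test), and for 13 of the 17, all higher.

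Of 15 genes of monocytes and alternatively activated macrophages other than Chil3 and F13a1, 8 were called higher at 4.5 weeks and 7 were not called, with a median of 2.37. The calls included S100a4, S100a6 and Lyz1, with log2 fold changes of 3.85, 2.69 and 3.40. At 4 weeks 5 were called higher and 10 were not, with a median of 1.43, and the difference was called higher in 4. These counts turned on single libraries: 2 were called higher at 4 weeks without cKO library 2 of that time. The difference was called higher in 7 without control library 1 of 4.5 weeks, in 6 without cKO library 2 of 4 weeks, and in 2 without control library 1 of 4 weeks or cKO library 3 of 4.5 weeks. The border macrophage genes of this list were not called at 4.5 weeks: Mrc1 at 1.11, Cd163 at 0.36 and Lyve1 at 0.093. In each of these the controls spread widely, Mrc1 averaging 9.07 ± 2.05 CPM in cKO cords and 4.02 ± 3.58 CPM in controls (SD, n = 3 each). Lyve1 averaged 1.71 ± 0.165 CPM in cKO cords and 1.55 ± 1.79 CPM in controls (SD, n = 3 each). Without control library 1, which was rich in meningeal transcripts, the 4.5-week ratios of Mrc1, Cd163 and Lyve1 were 4.63, 2.4 and 3.21, against 2.26, 1.34 and 1.1 with it.
Of 13 genes of homeostatic microglia, none of them a late-rise gene, 11 were called higher at 4.5 weeks (median 2.42) and 10 higher and 1 lower at 4 weeks (median 0.84). Siglech and Slc2a5 were not called at 4.5 weeks, at 0.013 and -0.31. Gpr34, a lysophospholipid receptor, had log2 fold changes of 3.48 at 4.5 weeks and 0.90 at 4 weeks, and Fcrls, a microglial surface receptor, of 5.48 and 2.84; both were called at both times.

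Oligodendrocyte progenitor genes differed between the times. Of 13 other than Neu4 and Sox6, 11 were called higher and none lower at 4.5 weeks, with a median log2 fold change of 1.22, while Olig1 and Ptprz1 were not called at 0.0037 and 0.12. At 4 weeks 4 were called higher and 4 lower (Gpr17, C1ql1, Olig1 and Ptprz1, at -0.67, -0.47, -0.63 and -0.55), with a median of -0.087. The difference of the effects was called higher in all 13, with a median of 0.98. Matn4, a matrix protein, averaged 137 ± 4.48 CPM in cKO cords and 7.34 ± 0.368 CPM in controls (SD, n = 3 each) at 4.5 weeks. At 4 weeks Matn4 averaged 35.9 ± 9.64 CPM in cKO cords and 9.18 ± 0.627 CPM in controls (SD, n = 3 each). Vcan, versican, averaged 314 ± 23.7 CPM in cKO cords and 34.4 ± 1.8 CPM in controls (SD, n = 3 each) at 4.5 weeks. At 4 weeks Vcan averaged 53 ± 11.6 CPM in cKO cords and 29.6 ± 0.544 CPM in controls (SD, n = 3 each). Cspg4, the NG2 proteoglycan, had log2 fold changes of 2.45 at 4.5 weeks and 1.16 at 4 weeks.

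Angptl4 and Sult1a1 belong to the list of glucocorticoid-induced genes. Of the other 18, 14 were called higher and 1 lower (Tsc22d3, at -0.56) at 4.5 weeks, with a median of 1.45, and Klf9, Ddit4 and Errfi1 were not called at -0.18, 0.50 and 0.17. At 4 weeks 6 were called higher and 2 lower, with a median of 0.49, and the difference was called higher in 8 and lower in none. The 4-week count of lower genes was 1 without cKO library 2 or control library 3 of that time, and without that control 1 difference was called lower. Fkbp5, a co-chaperone of the glucocorticoid receptor, had a pattern close to that of the late-rise genes: it averaged 176 ± 23.5 CPM in cKO cords and 28.1 ± 1.89 CPM in controls (SD, n = 3 each) at 4.5 weeks. At 4 weeks Fkbp5 averaged 37.5 ± 4.61 CPM in cKO cords and 27.5 ± 6.9 CPM in controls (SD, n = 3 each). Its log2 fold change was 2.57 (SE 0.16, adjusted p = 1.8e-08) at 4.5 weeks and 0.36 (SE 0.15, adjusted p = 0.089) at 4 weeks by edgeR's quasi-likelihood test; the 4-week value was called, at 0.58, without control library 3 of that time. Mt1, a metallothionein, had log2 fold changes of 1.68 and 1.13 at these times, and Cdkn1a, a p53 target as well, of 3.93 and 4.23.
Of 18 hypoxia-induced genes other than Angptl4, 9 were called higher and 6 lower at 4.5 weeks (median 0.47), and 6 higher and 6 lower at 4 weeks (median -0.0066). The 4-week count of higher genes was 4 without cKO library 2, cKO library 3 or control library 1 of that time. Hk2, hexokinase 2, was called higher at 4.5 weeks with 3.50, while Apln, the peptide apelin, was called lower with -3.38 and Bnip3, a mitochondrial protein, with -0.97; Ankrd37, Egln3 and Pfkfb3 were not called at 0.38, -0.068 and 0.078.

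Of 21 growth factor ligands other than Igf1, 8 were called higher and 11 lower at 4.5 weeks, with a median of -0.43, and 7 higher and 2 lower at 4 weeks, with a median of 0.13. The lower genes of 4.5 weeks numbered 7 without cKO library 1 or 2 of that time; those of 4 weeks numbered 3 without cKO library 1 or 2 of that time and 1 without cKO library 3. Hbegf, a ligand of the EGF receptor, was called higher at 4.5 weeks with 1.60, and Fgf1 and Nrg1, an axonal ligand for glia, lower with -1.54 and -1.67. Gdf5 and Artn were not called at 4.5 weeks, at -0.20 and -0.81. The neuron markers, as given above, were lower in cKO cords too, and their part was not tested.

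**Figure D5:**
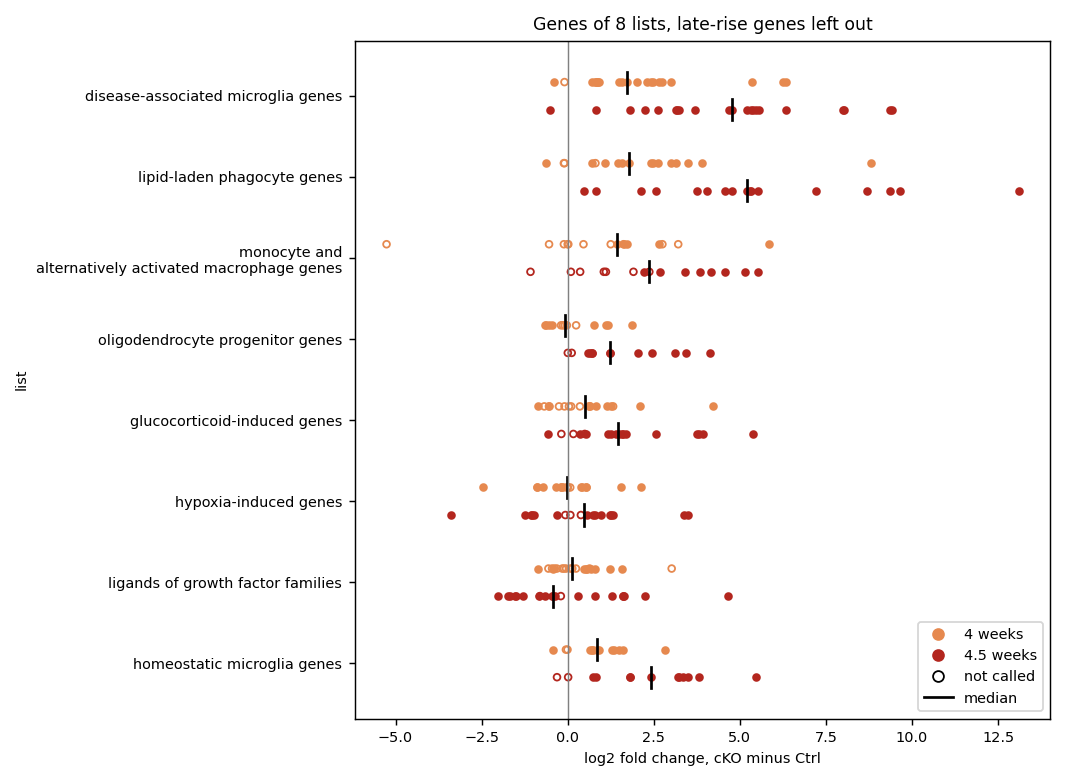
Log2 fold change, cKO minus control, of each gene of the 8 lists (rows) without the late-rise genes, at 4 weeks (orange) and 4.5 weeks (red); filled points were called, open points were not, and black lines are medians. The medians of the disease-associated microglia and lipid-laden phagocyte lists lie at 1.72 and 1.78 at 4 weeks and 4.76 and 5.20 at 4.5 weeks, and that of the progenitor list at -0.087 and 1.22.

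Further lists were drawn up after the values were seen and are given as values only. All 3 cKO cords lay above all controls at 4.5 weeks in 39 of 43 lysosomal genes that are not late-rise genes, with a median ratio of 2.73, where 42.6% of all 16364 genes lay above and 35.2% below with a median of 1.05. At 4 weeks 25 of the 43 lay above and 9 below, with a median ratio of 1.19. Of all genes, 33.2% lay above and 18.0% below at that time, with a median of 1.06. Cd68, a lysosomal membrane protein of phagocytes, had ratios of 100.2 at 4.5 weeks and 9.29 at 4 weeks. Lamp1, an abundant protein of the lysosomal membrane, went the other way early: its ratio was 0.864 at 4 weeks, with every cKO cord below the controls, and 2.1 at 4.5 weeks.

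Of 20 genes of committed and newly formed oligodendrocytes that are not late-rise genes, all cKO cords lay above the controls in 14 and below in 3 at 4.5 weeks, with a median ratio of 1.93. At 4 weeks they lay above in 3 and below in 10, with a median ratio of 0.822. Of all genes, 42.6% lay above and 35.2% below at 4.5 weeks, and 33.2% above and 18.0% below at 4 weeks. Gpr17 averaged 681 ± 96.4 CPM in cKO cords and 59.2 ± 5.35 CPM in controls (SD, n = 3 each) at 4.5 weeks. At 4 weeks Gpr17 averaged 64 ± 17.8 CPM in cKO cords and 95.6 ± 24.2 CPM in controls (SD, n = 3 each). Nkx2-2, a transcription factor of the lineage, averaged 66.2 ± 5.09 CPM in cKO cords and 16.8 ± 2.18 CPM in controls (SD, n = 3 each) at 4.5 weeks. At 4 weeks Nkx2-2 averaged 15 ± 0.389 CPM in cKO cords and 21.1 ± 4.74 CPM in controls (SD, n = 3 each). Sirt2, a deacetylase of the myelin sheath, averaged 528 ± 70.7 CPM in cKO cords and 274 ± 7.22 CPM in controls (SD, n = 3 each) at 4.5 weeks. At 4 weeks Sirt2 averaged 194 ± 23.8 CPM in cKO cords and 309.9 ± 7.7 CPM in controls (SD, n = 3 each). Myrf, the transcription factor of myelin genes, stayed lower in cKO cords at both times, with ratios of 0.86 at 4.5 weeks and 0.724 at 4 weeks.

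Of 22 scavenger and lectin receptor genes listed, 18 reached a mean of 1 CPM in a group, the filter used for all genes too. Of the 16 of these that are not late-rise genes, 12 had all cKO cords above the controls at 4.5 weeks, with a median ratio of 4.80. At 4 weeks 8 did, with a median of 1.55. Among the 12, Stab2, Olr1 and Cd5l passed the filter only through the 4.5-week cKO cords, while Marco, Cd209f, Cd209g and Timd4 did not pass it. The filter thus favoured genes high in those cords, and nothing is read from the 4.5-week count. The shares of all genes were 42.6% at 4.5 weeks and 33.2% at 4 weeks. Msr1, scavenger receptor A, averaged 69.6 ± 8.53 CPM in cKO cords and 0.451 ± 0.441 CPM in controls (SD, n = 3 each) at 4.5 weeks. At 4 weeks Msr1 averaged 5.71 ± 3.27 CPM in cKO cords and 0.611 ± 0.295 CPM in controls (SD, n = 3 each). Mertk, a receptor for dying cells, averaged 155 ± 10.5 CPM in cKO cords and 13.6 ± 1.22 CPM in controls (SD, n = 3 each) at 4.5 weeks. At 4 weeks Mertk averaged 24.5 ± 1.6 CPM in cKO cords and 15 ± 4.75 CPM in controls (SD, n = 3 each). Stab2, the relative of Stab1, was at 1.12 ± 0.359 CPM in cKO cords and 0.244 ± 0.11 CPM in controls (SD, n = 3 each) at 4.5 weeks. Of 10 border macrophage genes that are not late-rise genes, 4 had all cKO cords above the controls at 4.5 weeks, with a median ratio of 2.14, and 1 at 4 weeks, shares near and below the 42.6% and 33.2% of all genes. Without control library 1 of 4.5 weeks, a setting chosen after seeing the data, all 10 did at 4.5 weeks, with a median ratio of 7.13, where 45.6% of all genes did. Ms4a7, a tetraspan protein of macrophages, averaged 19.6 ± 2.16 CPM in cKO cords and 0.262 ± 0.241 CPM in controls (SD, n = 3 each) at 4.5 weeks. It reached a mean of 1 CPM only in the 4.5-week cKO cords, and so entered the counts of this list only through them. Folr2, the folate receptor of resident macrophages, averaged 6.89 ± 0.414 CPM in cKO cords and 0.613 ± 0.795 CPM in controls (SD, n = 3 each). Without control library 1 the 4.5-week ratio was 159 for Ms4a7 and 43.4 for Folr2, against 74.8 and 11.2 with it. Lyve1, as given above, had overlapping groups.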

How the data were processed

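The deposited tables hold estimated counts per gene for the 12 libraries, which the authors made with STAR and RSEM on mm39, per the submitters' processing notes; versions and the annotation release are not given in the sources used here. RNA was extracted with QIAzol and libraries were made with a TruSeq RNA v2 kit, per the labels' protocols, a kit that does not mark strand. Counts were divided by the column sum for CPM, and rounded to whole numbers for edgeR 4.0.16 (quasi-likelihood test, TMM factors, filterByExpr, 4 groups in 1 fit without a replicate block, Benjamini-Hochberg adjustment; R 4.3.3), after a test on simulated data. Chromosomes, gene types and overlaps came from GENCODE M21 by name, and promoter windows from RefSeq.

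The late-rise genes, lists, roles and motifs were chosen with earlier results of these data known. Genes named in full were the 12 with the highest level, the 12 with the largest ratio, those at the edges of the rule and those in a list; of each list, up to 3 genes with the smallest p. P-values measure the spread between cords. Of 566 list genes, 564 were matched. Alternatives were other scalings and tests (DESeq2 1.42.0, limma 3.58.1), filters, thresholds, a sex term, a replicate block and left-out libraries. Some genes are not reported here; they remain in counts over all genes, the late-rise genes and the lists.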

Additional observations from a re-analysis of the deposited data

Results flagged for a closer look

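In 20 named genes outside the late-rise set the cKO effect differed between the times, by the difference of the log2 effects (4.5 minus 4 weeks) in edgeR's quasi-likelihood test with Benjamini-Hochberg adjustment. The difference was positive in 16. These genes were named for the smallest p of their lists at 4.5 weeks, and the 4.5-week effect is part of the difference. The choice thus favoured large differences, and nothing is read from their number. Of all genes tested, 18.7% were called higher and 21.9% lower in the difference. Phagocyte genes had the 8 largest values: Gpnmb 6.88, Trem2 3.08, Plin2 3.05, Abca1 2.98, Ctsd 2.66, Fcrls 2.63, Gpr34 2.59 and S100a4 2.41. Lyz1, another, had 1.77; it averaged under 2 CPM in every group, and its difference had an adjusted p of 0.034, and above 0.05 in several alternatives, for example 0.06 with no filter on low counts. Among progenitor genes Vcan stood at 2.36, Matn4 at 2.26 and Cspg4 at 1.29. The glucocorticoid-induced Fkbp5 had 2.21 and Mt1 0.54, the hypoxia-induced Hk2 1.96, and the ligand Hbegf 0.79. The difference was negative for Nrg1 at -1.62, Fgf1 at -1.38, Apln at -0.93 and Bnip3 at -0.79. The time points also differ in the sex of the libraries, and the part of sex in these differences was tested only by the sex term, with which those of Lyz1, Mt1 and Apln were no longer called (adjusted p of 0.054, 0.086 and 0.095).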

How the results depend on the processing

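The number of late-rise genes, 89, follows its thresholds: it was 156 with a minimum ratio of 2.5 and 38 with 4, and 211 with a 4-week window of 0.67 to 1.5 and 34 with one of 0.9 to 1.1. TMM scaling, which lowers the log2 fold change of all genes by 0.078 at 4.5 weeks and 0.088 at 4 weeks, gave 102 genes, 73 of them shared with the 89. Minimum levels of 2 and 10 CPM gave 111 and 77, and the 4-week ratio from cKO library 3 alone gave 95, 68 shared. Leaving out 1 library at a time gave 78 to 123; 46 of the 89 genes met the rule in all 12 such sets, and Mxra8 met it least often, in 6. Without both control libraries 1 and 2 of 4.5 weeks, an alternative chosen after seeing the data, it was 116, all 89 among them.

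Genes called at 4 weeks numbered 7179, but 4548 with a sex term, in which genotype at 4 weeks rests on few cords of like sex, and 5476 to 7760 with 1 library left out. At 4.5 weeks 12701 were called, 11754 to 13033 with 1 library left out, and in the difference of effects 7841, against 6979 to 7760. Of 992 counts of list genes under the alternatives, 951 stayed within 1.5 times. Of 1363 values of named genes, 1331 kept their status as called or not called, 23 lost the call and 9 gained it. None turned in sign where the main or the alternative fit called the gene. Changes of sign where neither fit called the gene were not counted.

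The replicate numbers do not pair the cords: deviations of same-numbered cKO and control cords correlated between -0.165 and 0.057. With a replicate block 12167 genes were called at 4.5 weeks, 6339 at 4 weeks and 7144 in the difference, and 408 list genes, against 418 without it. Counts of 3, worth at most 0.0906 CPM in any library, bound what depth can show; Chil3 and Ms4a4a lay near that level at 4 weeks.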

Other observations

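The 3 X-linked genes that met every other condition were Stard8, a GTPase activating protein, Gla, the lysosomal alpha-galactosidase, and Chrdl1, an inhibitor of bone morphogenetic proteins. Stard8 had 33.4, 30.4 and 32.7 CPM in cKO cords against 9.32, 8.53 and 7.84 CPM in controls at 4.5 weeks. At 4 weeks Stard8 had 8.3, 8.06 and 8.14 CPM in cKO cords against 6.76, 9.24 and 8.46 CPM in controls. Its 4-week cords lay where the 4.5-week controls did. Gla read 53.1, 63.7 and 60.5 CPM in cKO cords against 17.8, 16.8 and 16.5 CPM in controls at 4.5 weeks. At 4 weeks Gla had 17.6, 21.1 and 20.7 CPM in cKO cords against 14.6, 16.3 and 18.7 CPM in controls. In Gla too the 4.5-week cKO cords stood alone. Chrdl1 had 6.03, 6.88 and 7.16 CPM in cKO cords against 2.58, 1.8 and 2.04 CPM in controls at 4.5 weeks. At 4 weeks Chrdl1 had 2.94, 3.86 and 2.87 CPM in cKO cords against 2.81, 2.81 and 3.38 CPM in controls. The 4-week groups overlapped in all 3, and their 4-week ratios were 1, 1.2 and 1.07.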
